A study of Homo sapiens with 12 samples.

Results

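The MCM genes encode the replicative DNA helicase and a few proteins named with it, and 9 of them were followed here: MCM2, MCM3, MCM4, MCM5, MCM6, MCM7, MCM8, MCM10 and MCMBP. They were taken by name, as the rows with these symbols among 58233 genes, but with earlier results of these data known. MCM9 and MCMDC2, which lay below the filter described next, are not members and were read with the partner genes. All 9 passed the filter on low values, which kept 7820 genes with at least 5 RPKM in at least 3 libraries. RPKM is a read count scaled to gene length and library size, here rounded to whole numbers.

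RNA was sequenced from HL-60 cells, an established cell line from an acute myeloid leukaemia, in 12 libraries. Cells were left untreated, or treated with 100 nM all-trans retinoic acid (ATRA), 500 nM of the CDK4/6 inhibitor palbociclib, or both at these doses (the combination), with 3 libraries each. All cells are labelled wild type, grew in RPMI medium with foetal calf serum, and are labelled with a time of 3 h. The comparisons ask how far each drug alone lowers or raises a gene, what each adds to the other, and whether palbociclib acts as strongly with ATRA as without. Myeloid markers fitted the label in part, with MPO at 1077 to 1579 RPKM, PRTN3 at 195 to 310, SPI1 at 80 to 112 and CEBPA at 33 to 56, while ELANE was nearly absent at 0 to 1. All 8 T cell, B cell, erythroid, epithelial and fibroblast markers were listed at 0 in every library. RPKM summed to between 358455 and 390247 per library with 13127 to 13447 genes above 0, and the read depth of single libraries cannot be taken from rounded RPKM, so no counting error is given. In such bulk RNA, fewer cells in S phase and less RNA per cell cannot be told apart. As the labels do not say whether replicates were separate cultures, p-values measure only the spread between these libraries, which may be technical.

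MCM2 to MCM7 form a ring of related subunits that is loaded onto replication origins in G1 phase and unwinds DNA in S phase once CDC45 and the GINS proteins have joined it. MCM10 helps to switch the loaded ring on, MCMBP binds MCM subunits, and MCM8 works with MCM9 in repair by homologous recombination. CDK4 and CDK6 phosphorylate the retinoblastoma protein family, which otherwise holds E2F transcription factors in check, and many replication genes are known E2F targets.

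The promoters of the members are shown first, and no link between them and the values below was tested. RefSeq promoter windows (GRCh38.p14, 250 bases before to 50 bases after the start) were found for 7 of the 9 genes, and not for MCM4 and MCM5. MCM7 had 3 windows and MCMBP 2, and only the window at the start of the representative transcript (MANE Select) was searched. The start used can lie inside the gene span given below, as for MCM7 and MCMBP, so other starts exist. The E2F words searched, on both strands, were TTTCCCGC, TTTCGCGC, TTTGCCGC and TTTGGCGC. At least 1 lay in 6 of these 7 windows, against 3.3% of 34943 windows of the same length, and MCM10 was the member without one. The stretches below run from 200 bases before the start through the first 30 transcribed bases, 5′ to 3′ on the gene's own strand, and capitals mark the E2F words. They lie at chr3:127598211-127598440 on the plus strand for MCM2, chr6:52284713-52284942 on the minus strand for MCM3, chr2:135876414-135876643 on the minus strand for MCM6, chr7:100101368-100101597 on the minus strand for MCM7, chr10:119872814-119873043 on the minus strand for MCMBP and chr10:13161358-13161587 on the plus strand for MCM10. MCM2, MCM3, MCM6 and MCM7 are shown as ring subunits, MCMBP as the member called lower when ATRA was added to palbociclib, and MCM10 because it has none of the words searched. Its stretch does hold TTTGGCGG, in small letters, which differs from TTTGGCGC only in the last base. Other forms of E2F site were not searched, so MCM10 cannot be said to lack one.
MCM2: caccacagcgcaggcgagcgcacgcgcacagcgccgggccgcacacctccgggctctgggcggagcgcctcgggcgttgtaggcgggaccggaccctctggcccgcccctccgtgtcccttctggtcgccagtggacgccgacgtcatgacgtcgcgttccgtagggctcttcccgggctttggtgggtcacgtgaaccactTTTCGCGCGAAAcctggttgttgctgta
MCM3: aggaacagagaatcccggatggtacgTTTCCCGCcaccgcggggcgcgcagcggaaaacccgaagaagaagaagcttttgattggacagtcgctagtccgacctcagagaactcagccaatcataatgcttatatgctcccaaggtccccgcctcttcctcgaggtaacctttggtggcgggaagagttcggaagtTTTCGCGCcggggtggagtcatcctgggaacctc
MCM6: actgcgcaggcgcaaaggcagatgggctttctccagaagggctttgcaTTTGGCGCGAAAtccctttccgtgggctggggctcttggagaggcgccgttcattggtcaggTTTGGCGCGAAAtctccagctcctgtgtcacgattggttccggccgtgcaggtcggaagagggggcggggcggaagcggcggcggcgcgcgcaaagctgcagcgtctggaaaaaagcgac
MCM7: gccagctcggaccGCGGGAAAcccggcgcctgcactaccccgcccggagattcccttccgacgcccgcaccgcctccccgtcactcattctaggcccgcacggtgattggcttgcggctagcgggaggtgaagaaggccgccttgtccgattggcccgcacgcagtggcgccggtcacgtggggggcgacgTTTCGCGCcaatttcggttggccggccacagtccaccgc
MCMBP: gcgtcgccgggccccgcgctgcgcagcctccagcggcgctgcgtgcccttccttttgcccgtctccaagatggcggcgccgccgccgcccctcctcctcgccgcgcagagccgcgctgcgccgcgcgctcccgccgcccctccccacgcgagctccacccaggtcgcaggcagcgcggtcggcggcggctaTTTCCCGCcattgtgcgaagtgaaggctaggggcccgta
MCM10: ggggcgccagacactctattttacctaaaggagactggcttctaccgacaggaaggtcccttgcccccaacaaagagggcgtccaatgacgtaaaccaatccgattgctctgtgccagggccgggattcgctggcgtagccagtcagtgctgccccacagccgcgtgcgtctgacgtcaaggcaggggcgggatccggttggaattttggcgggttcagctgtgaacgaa

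Counting the start base as 0, the MCM2 window held an E2F word on each strand, from base 2 to 9 and from 6 to 13, which overlap. MCM6 held 4 words as overlapping pairs, with one pair between bases -152 and -141 and the other between -90 and -79. The MCM3 words lay at -174 to -167 and across the start at -4 to 3, those of MCM7 at -187 to -180 and -9 to -2, and the single MCMBP word also at -9 to -2. In MCM8, whose stretch is not shown, the word lay after the start at 26 to 33. The CCAAT box (CCAAT, either strand), a word found in 34.6% of all windows, was present in MCM3, MCM6, MCM7, MCM8 and MCM10, and shared 1 base with an E2F word in MCM7. The E-box CACGTG, found in 7.23% of all windows, was present in MCM2, MCM7 and MCM8. These matches describe letters in the reference and do not show binding in HL-60 cells.

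All 9 members were lower in every treated library than in every untreated one, as were 6.36% of all 7820 tested genes. Taken by group, every library lay below every untreated library for all 9 members with ATRA, palbociclib and the combination, against 17.3%, 9.48% and 20.6% of tested genes. The 6 subunit genes summed to 518, 524 and 532 RPKM in the untreated libraries. The sum was 425, 415 and 417 RPKM with ATRA. It was 339, 327 and 297 RPKM with palbociclib and 338, 330 and 289 RPKM with the combination. The sum was thus highest in untreated cells, lower with ATRA, and lowest in both palbociclib groups, whose ranges overlapped. On the RPKM scale, which allows for length, MCM7 was the most abundant member in untreated cells (121 RPKM ± 4 SD, n = 3) and MCM8 the least (11.3 ± 0.577).

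**Figure D1:**
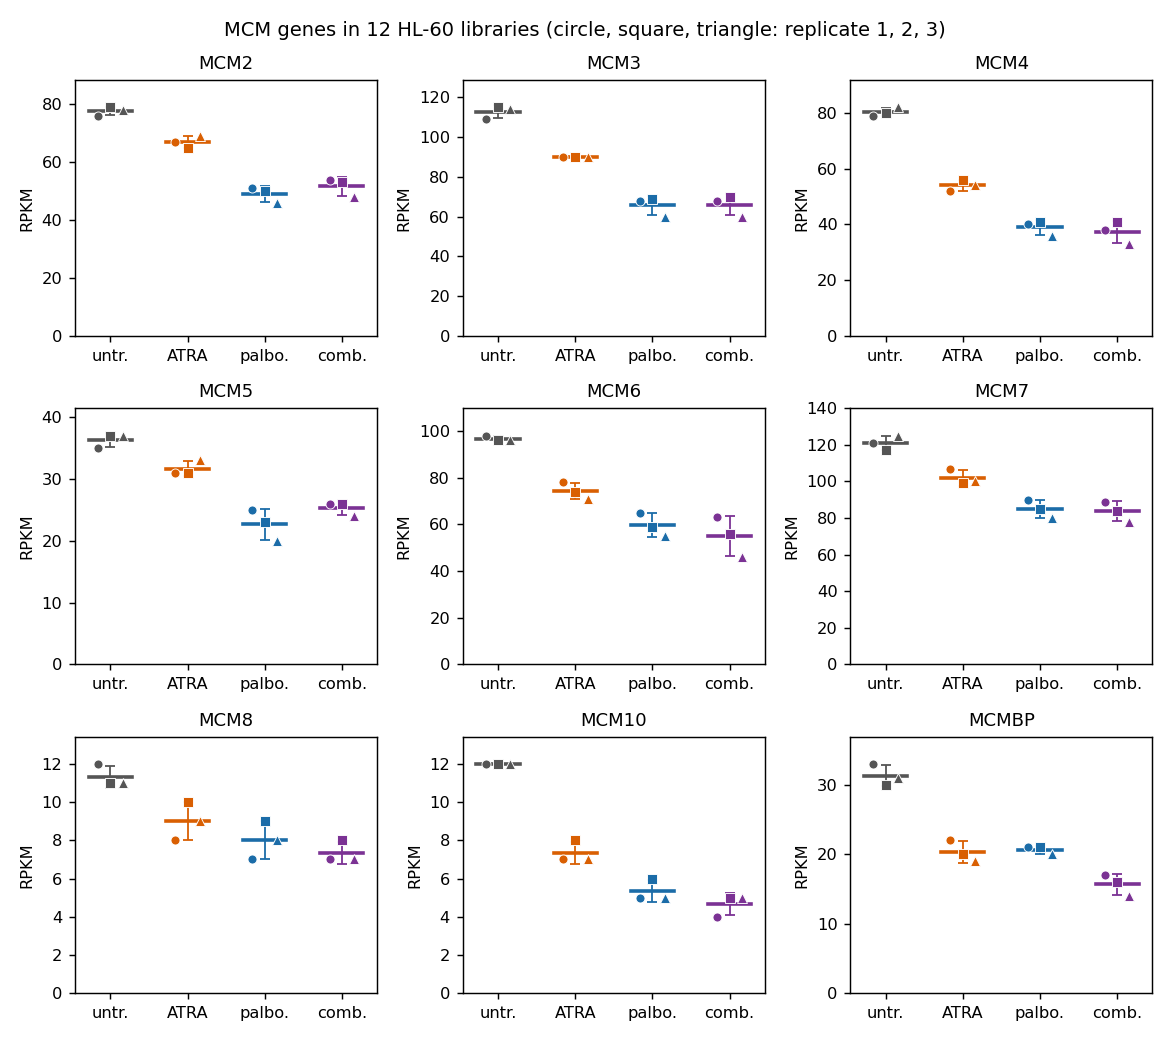
RPKM of the 9 MCM genes (y axes, from 0) in untreated, ATRA, palbociclib and combination libraries (x axes). Points are single libraries, bars the mean and whiskers ± SD of 3 replicates. In every panel all 9 treated libraries lie below the 3 untreated ones (6.36% of all tested genes), and palbociclib and combination libraries overlap except for MCMBP.

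MCM2, the subunit that also binds histones, spans chr3:127598410-127622436 on the plus strand of hg38 (GENCODE v44, as are all gene spans given here). It stood at 76, 79 and 78 RPKM in untreated cells and at 67, 65 and 69 with ATRA. Palbociclib libraries read 51, 50 and 46 RPKM and combination libraries 54, 53 and 48. ATRA libraries lay below untreated ones, and both palbociclib groups lay below the ATRA group without overlap. MCM2 sits next to MCM5 in the ring, and the gate through which DNA enters lies between them. MCM5 (chr22:35400134-35425431, plus strand) was measured at 35, 37 and 37 RPKM untreated, 31, 31 and 33 with ATRA, 25, 23 and 20 with palbociclib and 26, 26 and 24 with the combination. It was the least abundant ring subunit in every group, with the same order of groups as MCM2.

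MCM3 (chr6:52264014-52284881, minus strand), the ring neighbour of MCM5, had values of 109, 115 and 114 RPKM in untreated cells. ATRA brought 90 RPKM in each of the 3 libraries, which are equal after rounding. Values were 68, 69 and 60 with palbociclib and 68, 70 and 60 with the combination. The pair of palbociclib groups was nearly the same library for library, and both lay below ATRA. MCM7 (chr7:100092233-100101940, minus strand) read 121, 117 and 125 RPKM untreated, 107, 99 and 100 with ATRA, 90, 85 and 80 with palbociclib and 89, 84 and 78 with the combination. The groups were again separate apart from the palbociclib groups. MCM7 carries MIR25, MIR93 and MIR106B within its span, listed at 0 to 2 RPKM, and overlaps AP4M1 on the other strand, listed at 2 RPKM in every library.

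MCM4 and MCM6 are next to each other in the ring, between MCM7 and MCM2. MCM4 (chr8:47960185-47978160, plus strand) fell from 79, 80 and 82 RPKM in untreated cells to 52, 56 and 54 with ATRA. It was at 40, 41 and 36 RPKM with palbociclib and at 38, 41 and 33 with the combination. MCM6 (chr2:135839626-135876443, minus strand) was at 98, 96 and 96 RPKM untreated, 78, 74 and 71 with ATRA, 65, 59 and 55 with palbociclib and 63, 56 and 46 with the combination. MCM6 was the subunit with the widest spread in the combination (55.0 ± 8.54). In the palbociclib and combination groups replicate 3 was the lowest library for each of the 6 subunits.

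The subunits did not fall by equal proportions. MCM4 made up 15.3% ± 0.0896 (SD, n = 3) of the RPKM summed over the 6 subunits in untreated cells, 12.9% ± 0.631 with ATRA, 12.2% ± 0.370 with palbociclib and 11.7% ± 0.638 with the combination. MCM7 made up 23.1% ± 0.638, 24.3% ± 0.729, 26.5% ± 0.474 and 26.3% ± 0.770 in the same order. These are descriptions, since shares of one sum move against each other, and they were not tested.

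Outside the ring, MCM10 (chr10:13161558-13211110, plus strand) had 12 RPKM in all 3 untreated libraries. It was at 7, 8 and 7 RPKM with ATRA, 5, 6 and 5 with palbociclib and 4, 5 and 5 with the combination. MCM8 (chr20:5950652-5998977, plus strand) gave 12, 11 and 11 RPKM untreated, 8, 10 and 9 with ATRA, 7, 9 and 8 with palbociclib and 7, 8 and 7 with the combination. At these levels the rounding step of 1 RPKM is a large part of any difference. MCM9, the partner of MCM8, lay below the filter at 1 to 2 RPKM. MCMBP (chr10:119829404-119892556, minus strand) showed another order, with 33, 30 and 31 RPKM untreated, 22, 20 and 19 with ATRA, 21, 21 and 20 with palbociclib and 17, 16 and 14 with the combination. ATRA and palbociclib alone gave overlapping MCMBP values, and the combination lay below both.

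Palbociclib alone lowered all 9 members. Differences were tested with limma on log2(RPKM + 0.1), called at a Benjamini-Hochberg adjusted p under 0.05 over all 7820 genes, and a log2 fold change of -1 is a halving. The same untreated libraries serve in every comparison with untreated cells, so these comparisons are not independent. MCM10 fell most, by 1.16 ± 0.11 (SE) on the log2 scale (limma adjusted p = 0.000287), followed by MCM4, which fell by 1.04 ± 0.08 (limma adjusted p = 9.65e-05). Log2 fold changes were -0.78 ± 0.07 for MCM3, -0.70 ± 0.10 for MCM6, -0.68 ± 0.08 for MCM5, -0.66 ± 0.06 for MCM2, -0.60 ± 0.08 for MCMBP and -0.51 ± 0.06 for MCM7. The 9 calls compare with 3.16% of all tested genes called lower, and each member ranked within the 158 lowest log2 fold changes of 7820. MCM8 had the weakest call (fell by 0.50 ± 0.11, limma adjusted p = 0.029). It lost this call without any single untreated library or without palbociclib replicate 1 or 3, with adjusted p from 0.0685 to 0.113. The call was also lost with no filter (limma adjusted p = 0.0521) and with only the libraries compared (limma adjusted p = 0.0923).

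ATRA alone lowered 7 of the 9 members, against 11.6% of all tested genes called lower, with estimates smaller than those of palbociclib for all but MCMBP, a difference that was not tested. Log2 fold changes were -0.71 ± 0.11 for MCM10 (limma adjusted p = 0.000904), -0.62 ± 0.08 for MCMBP (limma adjusted p = 0.000331) and -0.57 ± 0.08 for MCM4 (limma adjusted p = 0.00055). They were -0.38 ± 0.10 for MCM6, -0.32 ± 0.07 for MCM3, -0.25 ± 0.06 for MCM7 and -0.21 ± 0.06 for MCM2. MCM8 (-0.33 ± 0.11, limma adjusted p = 0.0512) and MCM5 (-0.20 ± 0.08, limma adjusted p = 0.0973) were not called, although their ATRA values did not overlap the untreated ones. Leaving out any one untreated or ATRA library took the call from at least 1 of MCM2, MCM6 and MCM7 (adjusted p from 0.0525 to 0.102), and only 4 members stayed called without untreated replicate 1 or 3.

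With both drugs all 9 members were lower than in untreated cells, against 17.7% of all tested genes. Log2 fold changes were -1.35 ± 0.11 for MCM10, -1.11 ± 0.08 for MCM4, -0.999 ± 0.08 for MCMBP, -0.82 ± 0.10 for MCM6 and -0.77 ± 0.07 for MCM3. They were -0.62 ± 0.11 for MCM8, -0.59 ± 0.06 for MCM2, -0.53 ± 0.06 for MCM7 and -0.52 ± 0.08 for MCM5, with limma adjusted p from 4.24e-06 for MCM4 to 0.00148 for MCM8. In linear terms, MCM10 was left at 38.9% of its untreated mean, MCM4 at 46.5% and MCM5, the least reduced, at 69.7%. The median log2 fold change of the 9 members was -0.33 with ATRA, -0.68 with palbociclib and -0.77 with the combination, while the medians of all tested genes were -0.01, 0.00 and -0.01.

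**Figure D2:**
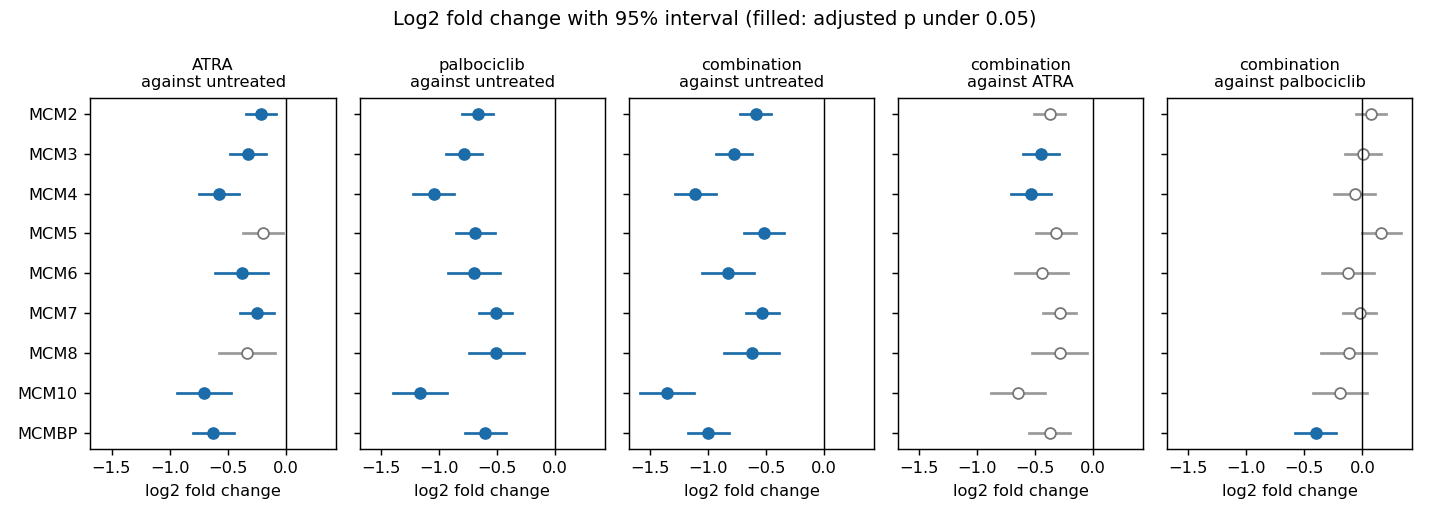
Log2 fold change (x axes) of each MCM gene in the 5 comparisons between groups, with limma 95% intervals. Filled points have an adjusted p under 0.05. All 9 genes are filled for palbociclib and for the combination against untreated cells, 7 for ATRA, 2 for the combination against ATRA and MCMBP alone for the combination against palbociclib.

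Adding palbociclib to ATRA called 2 of the 9 members lower, against 0.115% of all tested genes. These were MCM4 (-0.54 ± 0.08, limma adjusted p = 0.0395) and MCM3 (-0.45 ± 0.07, limma adjusted p = 0.0483). Estimates for the others were -0.65 ± 0.11 for MCM10 (limma adjusted p = 0.0625), -0.44 ± 0.10 for MCM6, -0.38 ± 0.06 for MCM2 (limma adjusted p = 0.0525), -0.38 ± 0.08 for MCMBP, -0.32 ± 0.08 for MCM5, and -0.29 for both MCM7 (± 0.06) and MCM8 (± 0.11). The 95% intervals of all 9 lay below 0, as did those of 3.11% of all tested genes. Every combination library lay below every ATRA library for 8 of the 9 genes, against 2.52% of tested genes, MCM8 being the exception. MCM2 and MCM5 are among the genes that the study itself picked from these libraries for this comparison, so they are not independent evidence of its direction.

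Same-numbered libraries of the treated groups varied together. When replicate numbers entered the model as a block, 7 of 9 members were called lower, against 0.639% of all tested genes. Limma adjusted p with this block was 0.0181 for MCM3, MCM4 and MCM10, 0.0246 for MCMBP, 0.0254 for MCM2, 0.0343 for MCM6 and 0.0449 for MCM7, while MCM5 (0.141) and MCM8 (0.276) were not called. Within same-numbered pairs the combination was below ATRA in 3 of 3 for every member, as it was for 11.6% of tested genes. The combination stood at 57.1%, 62.5% and 71.4% of ATRA for MCM10 and at 73.1%, 73.2% and 61.1% for MCM4. It stood at 80.6%, 81.5% and 69.6% for MCM2. Both counts hung on single libraries. Without the block, 3 members were called without palbociclib replicate 3, 1 without combination replicate 2 and 0 without any other library. With the block, 7 were called without untreated replicate 1 or 3, 4 without untreated replicate 2 or palbociclib replicate 1 or 3, 1 without combination replicate 3 and 0 without any of the other 6 libraries.

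Adding ATRA to palbociclib lowered MCMBP further, by 0.40 ± 0.08 on the log2 scale (limma adjusted p = 0.007, and 0.000775 with the replicate block). Same-numbered combination libraries had 81.0%, 76.2% and 70.0% of the palbociclib value. MCMBP was the only member called, 1 of 9 against 6.64% of all tested genes called lower, and the only one with every combination library below every palbociclib library, against 9.86%. None of the others passed the test, which does not show that ATRA had no effect on them. Their 95% intervals of the log2 difference ran from -0.15 to 0.16 for MCM3, -0.17 to 0.12 for MCM7, -0.06 to 0.21 for MCM2, -0.24 to 0.11 for MCM4 and -0.01 to 0.34 for MCM5. They were wider for MCM6 (-0.35 to 0.10), MCM8 (-0.36 to 0.12) and MCM10 (-0.42 to 0.04). MCM2 and MCM5 were higher in the combination in all 3 same-numbered pairs, at 104% to 106% and 104% to 120% of palbociclib, as were 18.7% of tested genes. Besides MCMBP, MCM6 and MCM7 were lower in all 3, at 83.6% to 96.9% and 97.5% to 98.9%, so that 3 of 9 members stand against 23% of tested genes.

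The drop with palbociclib was smaller in cells that also had ATRA, for each member, but no such difference passed the test. The departure from additivity is the log2 effect of palbociclib with ATRA minus that without, so that a positive value means a smaller fall with ATRA. It lay below 0 for 0 of 9 members, 2 of the 26 tested partner genes described below, and 50.5% of all tested genes. Its median was 0.29 over the members and 0.32 over the partner genes, so this direction was not particular to the members. It was 0.51 ± 0.15 for MCM10, 0.51 ± 0.11 for MCM4, 0.36 ± 0.11 for MCM5, 0.33 ± 0.10 for MCM3 and 0.29 ± 0.08 for MCM2. It was 0.25 ± 0.14 for MCM6, 0.22 ± 0.09 for MCM7, 0.22 ± 0.11 for MCMBP and 0.21 ± 0.15 for MCM8. Limma called 0 of 9 members and 0% of all genes, with and without the replicate block. At an unadjusted p under 0.05 it was higher for 6 of 9 members and 1.97% of all genes, or 154 genes. On the linear scale palbociclib changed MCM3 by -47.0 RPKM without ATRA and by -24.0 RPKM with it, and MCM4 by -41.3 and -16.7 RPKM.

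**Figure D3:**
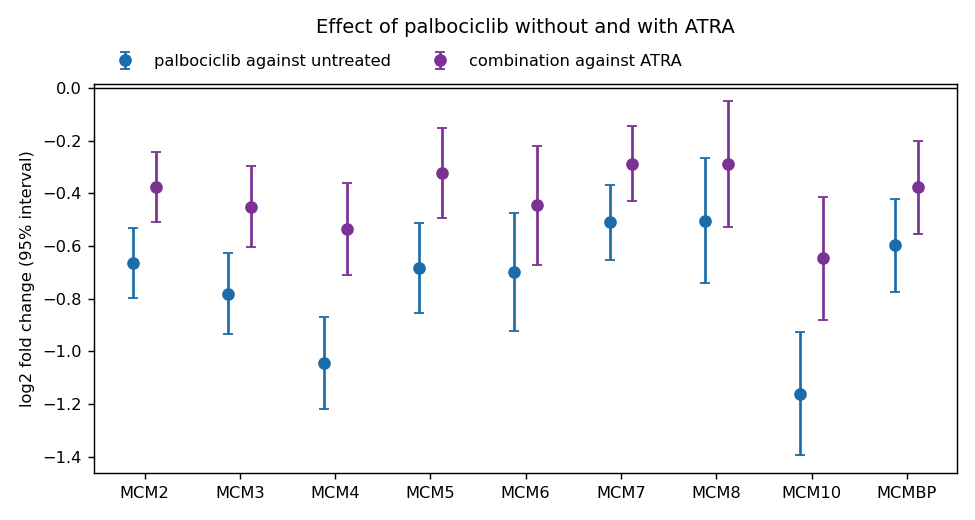
Log2 fold change with limma 95% interval (y axis) for palbociclib against untreated cells and for the combination against ATRA, for each MCM gene (x axis). The second point lies nearer 0 for all 9 genes, and the difference passes an adjusted p under 0.05 for 0 of them. The departure from additivity is below 0 for 0 of these 9 genes and for 50.5% of all tested genes.

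The genes that load, fire and accompany the helicase were read from a list of 30, of which 26 passed the filter. Besides MCM9, ORC4 and MTBP lay below it at 3 to 4 RPKM, and MCMDC2 was listed at 0. GINS1 and GINS4 passed the filter only through their untreated libraries, so their falls are no support. GINS1 is among the genes called lower with palbociclib and with the combination in the counts given next. Palbociclib lowered 16 of the 26, against 3.16% of all tested genes. ATRA lowered 7, against 11.6%, and the combination 20, against 17.7%. Limma called none of the 26 higher in these comparisons, where 0.908%, 8.71% and 12.7% of all tested genes were called higher. Counts by role, given next for palbociclib, have the same 3.16% as their background. Their median log2 fold change was -0.52 with palbociclib, -0.27 with ATRA and -0.52 with the combination. The study had picked CDC6, CDC7, CDC45 and TOPBP1 from these libraries.

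All 3 loading genes fell with palbociclib. CDC6, which loads the ring together with CDT1, was at 27, 29 and 28 RPKM untreated, 25, 30 and 25 with ATRA, 14, 16 and 13 with palbociclib and 19, 24 and 16 with the combination. ATRA and untreated values overlapped, and palbociclib values lay below all others bar an equal 16 in one combination library. Log2 fold changes with palbociclib were -0.97 ± 0.14 for CDC6 (limma adjusted p = 0.00327), -0.83 ± 0.13 for CDT1 and -0.86 ± 0.12 for the CDT1 inhibitor GMNN. Of the origin recognition genes only ORC1 was called for palbociclib (1 of 5, -0.83 ± 0.10, limma adjusted p = 0.000992), at 17, 20 and 17 RPKM against 32, 33 and 31 untreated. ORC2 (-0.06 ± 0.08), ORC3 (-0.17 ± 0.09), ORC5 (-0.07 ± 0.07) and ORC6 (-0.51 ± 0.14) were not called.

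Partners of the active helicase were called in 3 of 5 with palbociclib. Log2 fold changes were -1.09 ± 0.17 for GINS2, -0.78 ± 0.16 for GINS1 and -0.79 ± 0.08 for GINS3. CDC45 (-0.50 ± 0.13, limma adjusted p = 0.0674) and GINS4 (-0.45 ± 0.14) were not called. GINS1 read 6, 6 and 7 RPKM untreated and 3, 4 and 4 with palbociclib, and passed the filter only through the untreated values. GINS3 read 7 RPKM in every untreated library and 4 in every palbociclib library, equal after rounding, so its SE does not measure their real spread. Fork factors were called in 4 of 4. CLSPN, a checkpoint mediator at the fork, had the largest fall of the list, from 16, 15 and 15 RPKM untreated to 5, 7 and 6 with palbociclib (-1.35 ± 0.14, limma adjusted p = 0.000523). Of the kinase genes that fire origins, CDC7 fell (-0.92 ± 0.14) while its activators DBF4 (-0.27 ± 0.08) and DBF4B (0.09 ± 0.11) were not called. Firing factors were called in 3 of 4 (TOPBP1, RECQL4 and DONSON) and unloading genes in 1 of 2 (LRR1). None of the 26 was called between the combination and ATRA or palbociclib. With the replicate block ORC1 and DONSON were called lower than in ATRA, against 0.639% of tested genes, and ORC1 and CDC6 higher than in palbociclib, against 10.1%.

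**Figure D4:**
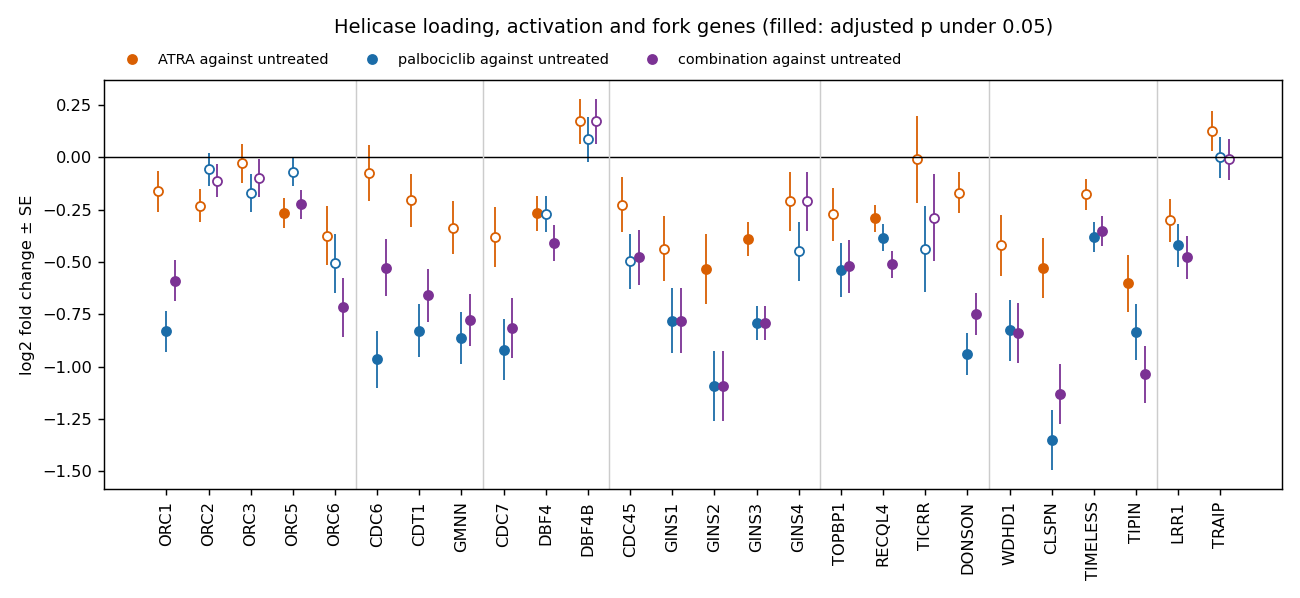
Log2 fold change ± SE (y axis) of the 26 tested partner genes (x axis), grouped by vertical lines into origin recognition, loading, firing kinase, active helicase, firing factors, fork factors and unloading. Filled points have a limma adjusted p under 0.05, which holds for 7 genes with ATRA, 16 with palbociclib and 20 with the combination.

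Profiles most like that of the ring were sought among 7785 tested genes outside both lists, by the root mean square difference from the mean centred log2 profile of MCM2 to MCM7 over 12 libraries. The 5 nearest were FEN1 (0.0565), USP1 (0.0691), RFC5 (0.0778), CDK2 (0.0789) and WEE1 (0.0896), against a median of 0.35 over all these genes. FEN1, which trims Okazaki fragments, had mean values of 76.7, 64.0, 45.0 and 48.0 RPKM in untreated, ATRA, palbociclib and combination cells. USP1, which removes ubiquitin from PCNA, had 49.7, 37.0, 28.7 and 28.7 RPKM. The study had also picked USP1, CDK2 and WEE1 from these libraries. Measured in the same way against the mean of the other subunits, MCM3 lay nearest at 0.0404 and MCM4 farthest of the ring at 0.181. Against the mean of the ring, MCM8 lay at 0.164, MCMBP at 0.194 and MCM10 at 0.265.

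A few members share their promoter region with a gene on the other strand that starts within 1000 bases, and these neighbours did not follow them throughout. TPRA1 starts 144 bases from MCM2 and was at 9, 8 and 9 RPKM untreated, 14, 13 and 13 with ATRA, 8, 8 and 9 with palbociclib and 12, 12 and 13 with the combination. TPRA1 rose with ATRA (0.62 ± 0.07, limma adjusted p = 0.0002) and with the combination (0.51 ± 0.07, limma adjusted p = 0.000499), while MCM2 fell in both. With palbociclib MCM2 fell as well (-0.66 ± 0.06), and TPRA1 was not called (-0.06 ± 0.07, limma adjusted p = 0.765). TRMT6, which starts 94 bases from MCM8, had 16, 15 and 15 RPKM untreated, 12, 11 and 12 with ATRA, 14, 12 and 14 with palbociclib and 12, 10 and 11 with the combination. TRMT6 fell with ATRA (-0.39 ± 0.08, limma adjusted p = 0.00745) and the combination (-0.48 ± 0.08, limma adjusted p = 0.0016) and was not called with palbociclib (-0.20 ± 0.08, limma adjusted p = 0.239). PRKDC, 763 bases from MCM4, was not called. It read 63, 58 and 60 RPKM untreated, 37, 58 and 63 with ATRA, 36, 54 and 60 with palbociclib and 35, 56 and 54 with the combination. Replicate 1 of each treated group was thus low for PRKDC, which was not so for MCM4. AP4M1, 152 bases from MCM7, lay below the filter.

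**Figure D5:**
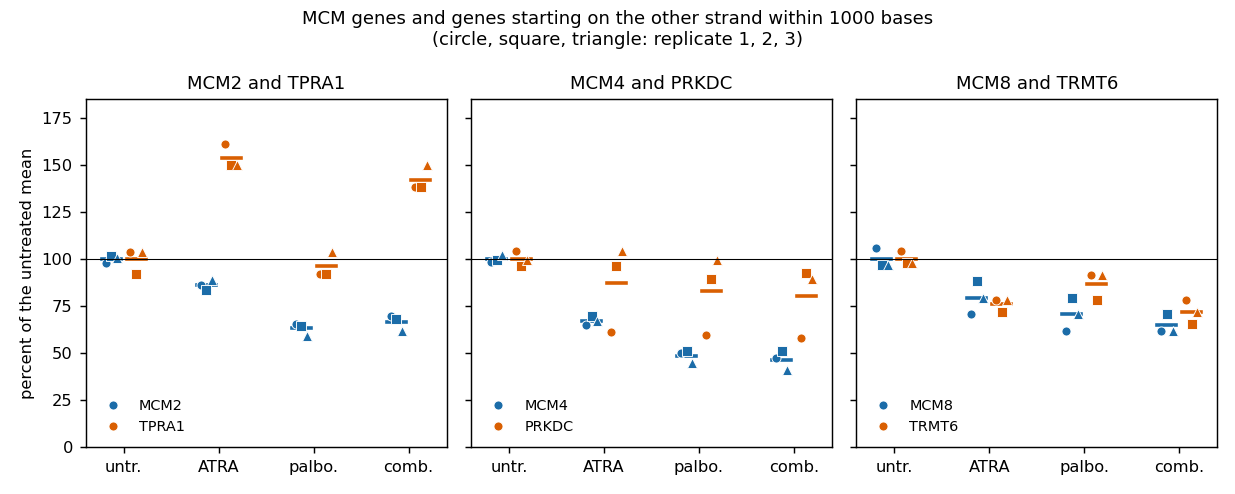
RPKM as percent of the untreated mean (y axes, from 0) for 3 MCM genes and the gene starting on the other strand within 1000 bases, by group (x axes). Points are single libraries and bars means of 3. TPRA1 lies at 150% to 162% of untreated with ATRA, where MCM2 lies at 83.7% to 88.8%.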

How the data were processed

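RNA from HL-60 cells was sequenced by the authors from poly(A) libraries, mapped to hg38 with HISAT2 and counted per gene with htseq-count in default settings. The gene annotation release and the strandedness of the kit were not given in the sources used here, so reads of genes that overlap on opposite strands, such as MCM7 and AP4M1, may not be told apart. The deposited values are RPKM that the authors rounded to whole numbers and were taken as a score in steps of 1, not as counts, so no count model was used.

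Groups and replicate numbers came from the sample labels. With 1 mean for each group, log2(RPKM + 0.1) of all 12 libraries was modelled in limma 3.58.1 (R 4.3.3, tables and plots in Python 3.11.15), with eBayes and a variance trend. P-values were two-sided and adjusted (Benjamini-Hochberg) within each comparison over 7820 genes with at least 5 RPKM in at least 3 libraries, and called under 0.05, the general significance level of the study (0.001 was an alternative). Such fold changes understate changes of low genes. The study tested counts with voom, which rounded RPKM do not allow. Same-numbered libraries of treated groups deviated together from their group means (correlation over genes 0.438 to 0.908 in 9 pairs), those of untreated with treated groups less so (0.045 to 0.367). No replicates were duplicates: among 2660 genes with a mean of at least 20 RPKM, 5.56% to 15.5% had identical values in a pair of replicates. Only the limma test was tried on simulated data, for palbociclib against untreated cells and without variation shared by same-numbered libraries.

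The members, lists, filter and tests were chosen with earlier results of these data known. Named were all members, partner genes called in any comparison or below the filter or needed to complete a group, the 5 genes nearest in profile, and neighbours within 1000 bases. Alternatives covered the pseudocount, filter, scaling, libraries fitted, variance trend, replicate block, threshold and each library left out. Gene spans came from GENCODE v44 and promoters from RefSeq (GRCh38.p14).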

Additional observations from a re-analysis of the deposited data

How the results depend on the processing

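No fold change that passed the test changed direction under any alternative. Among values recomputed for single members, 1150 kept their side of the threshold, 61 lost the call and 22 gained one. The number of members called lower with ATRA was 7 and ranged from 4 to 8 with one library left out, was 3 at an adjusted p under 0.001 and was 8 with the replicate block. For palbociclib it was 9, 8 to 9 with one library left out, 8 with no filter or with only the libraries compared, and 5 at 0.001. For the combination against untreated cells it was 9 with each library left out. For the combination against ATRA the count of 2 went to 1 with a pseudocount of 1 or 0.5 and with median scaling, to 5 with quantile normalisation, to 0 with only the libraries compared and at 0.001, and to 7 with the replicate block, and ranged from 0 to 3 with one library left out. Alternatives chosen after seeing the data gave 8 with the 9 treated libraries and the block, and 0 to 7 with the block and one library left out. For the combination against palbociclib the count of 1 stayed with each library left out and was 0 at 0.001. The block gave MCM8 a call with ATRA (adjusted p = 0.0169), and for the untreated groups it rests on shared numbers only. It moved the partner genes called lower from 7 to 16 of 26 with ATRA, from 16 to 21 with palbociclib (adding CDC45, GINS4, ORC6, DBF4 and TICRR, with adjusted p of 0.00398, 0.0269, 0.0128, 0.0153 and 0.015) and from 20 to 21 with the combination. Of these, GINS4 passed the filter only through its untreated libraries. Over all genes, the block moved the number called lower from 909 to 1619 for ATRA, 247 to 636 for palbociclib, 9 to 50 for the combination against ATRA and 519 to 1049 against palbociclib. At 0.001 these were 152, 38, 0 and 78, and 335 in place of 1381 for the combination against untreated cells. With only the libraries compared they were 147 for palbociclib, 21 against ATRA and 294 against palbociclib. Against ATRA they were 30 with a filter at 1 RPKM or none, 15 with quantile normalisation, 5 with median scaling and 3 to 13 with one library left out. For the departure from additivity 59 genes were called higher and 31 lower with the filter at 1. Leaving out one library gave 589 to 1011 genes called lower for ATRA, 141 to 235 for palbociclib and 319 to 565 against palbociclib. No cause of these changes was tested. Rounding to 1 RPKM and the unknown depth limit MCM8 and MCM10 most among the members. Low partner genes such as GINS1, GINS3, DONSON and CDC7 are limited in the same way.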
